A study of Mus musculus with 5 samples.

Results

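The 9 genes described here encode proneural and neuronal basic helix-loop-helix (bHLH) transcription factors: Neurog1, Neurog2, Neurod1, Neurod2, Neurod4, Neurod6, Atoh1, Nhlh1 and Nhlh2. They were chosen by name, as bHLH genes of neuronal commitment and differentiation other than Ptf1a, and each matched 1 of the 23234 rows of the authors' gene table. RNA was sequenced from GFP-positive cells sorted from mouse (CD1) embryonic cortex. In 3 samples the cortex had received a Ptf1a and GFP construct by electroporation at E12.5, and in the 2 control samples a GFP-only construct at the same age. Both groups were harvested at E15.5, and each sample pooled 3 to 6 brains. The labels call the cells cortical pyramidal cells and do not name the promoter of the construct, and the sort was for GFP.

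Proneural bHLH factors such as Neurog1 and Neurog2 push dividing cortical progenitors toward the neuronal fate. They bind DNA at E-boxes as dimers with ubiquitous E-proteins, and they switch on a later set of bHLH factors, the NeuroD and Nhlh genes, in cells that are leaving the cell cycle. Id proteins tie up the E-proteins, and Hes and Hey repressors silence the proneural genes. In the cortex Neurog2 and the NeuroD genes belong to the glutamatergic pyramidal lineage. Ptf1a is itself a bHLH factor, which specifies inhibitory neurons in the dorsal spinal cord, cerebellum and retina, and which works together with an E-protein and Rbpj.

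The members moved in both directions with Ptf1a. Neurog1, Neurog2, Nhlh1 and Nhlh2 rose, and Neurod1, Neurod2 and Neurod6 fell by much smaller amounts. Of the 9 genes, 7 carried a test by the authors, and at their q-value under 0.05 that made 4 higher and 3 lower. Over all 11876 tested genes 18.7% were higher and 19.1% were lower at the same threshold, 37.7% in either direction. Neurod4 and Atoh1 were marked as not tested in the table. The values are the authors' merged group values in FPKM (fragments scaled to transcript length and to sequencing depth), 1 for each group. Values of single samples were not analysed here. The spread within a group, and whether the samples of the groups overlapped, are therefore unknown. In bulk RNA, fewer cells of a type and less RNA per cell cannot be told apart.

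The promoters of the 4 genes that rose and of Neurod6, the most abundant gene that fell, are shown for the E-boxes that bHLH dimers can bind. Each runs 5′ to 3′ from 250 bases before the start of transcription to 50 bases into the gene (RefSeq, GRCm38.p6). Capitals mark E-boxes (CANNTG, a palindrome) and the TC-box letters read by Rbpj (TTCCCA or its complement TGGGAA).
Neurog1 (chr13:56252131-56252430, minus strand): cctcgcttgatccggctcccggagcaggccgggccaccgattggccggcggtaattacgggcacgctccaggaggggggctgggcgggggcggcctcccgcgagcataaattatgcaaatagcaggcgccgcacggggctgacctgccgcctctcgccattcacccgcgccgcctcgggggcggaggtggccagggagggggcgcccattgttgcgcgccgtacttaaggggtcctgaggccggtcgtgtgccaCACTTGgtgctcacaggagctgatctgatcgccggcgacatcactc
Neurog2 (chr3:127632886-127633185, plus strand): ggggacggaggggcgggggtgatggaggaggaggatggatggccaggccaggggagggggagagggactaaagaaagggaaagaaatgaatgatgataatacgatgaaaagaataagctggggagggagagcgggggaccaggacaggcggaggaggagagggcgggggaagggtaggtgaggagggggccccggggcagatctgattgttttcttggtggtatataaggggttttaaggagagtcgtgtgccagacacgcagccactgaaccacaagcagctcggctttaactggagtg
Nhlh1 (chr1:172057547-172057846, minus strand): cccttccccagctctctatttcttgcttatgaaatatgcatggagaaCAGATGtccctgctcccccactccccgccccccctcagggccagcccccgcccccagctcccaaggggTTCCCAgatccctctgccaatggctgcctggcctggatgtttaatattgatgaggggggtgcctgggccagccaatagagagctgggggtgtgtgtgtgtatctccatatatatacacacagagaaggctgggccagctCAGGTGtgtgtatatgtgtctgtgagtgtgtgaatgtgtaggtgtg
Nhlh2 (chr3:102009895-102010194, plus strand): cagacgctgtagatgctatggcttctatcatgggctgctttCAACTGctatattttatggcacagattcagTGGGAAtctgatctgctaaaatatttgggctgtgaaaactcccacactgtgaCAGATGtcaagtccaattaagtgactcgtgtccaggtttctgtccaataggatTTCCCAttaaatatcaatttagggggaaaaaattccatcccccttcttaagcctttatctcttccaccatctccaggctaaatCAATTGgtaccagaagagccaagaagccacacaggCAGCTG
Neurod6 (chr6:55681214-55681513, minus strand): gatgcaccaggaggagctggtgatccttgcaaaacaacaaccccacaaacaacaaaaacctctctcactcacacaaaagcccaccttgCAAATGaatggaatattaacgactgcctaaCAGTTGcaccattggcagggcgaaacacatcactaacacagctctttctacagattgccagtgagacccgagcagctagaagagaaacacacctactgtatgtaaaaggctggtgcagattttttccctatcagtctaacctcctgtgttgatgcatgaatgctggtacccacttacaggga

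The risen genes did not share 1 promoter layout. The Neurog2 window held none of these letters and the Neurog1 window a single E-box, CACTTG, which began 4 bases after the start. Nhlh2 held 4 E-boxes and 2 TC-boxes, and 1 E-box and 1 TC-box of this window lay 24 bases apart. Nhlh1 held 2 E-boxes and 1 TC-box. Each member had at least 1 window in the RefSeq table and Neurod4 had 2, so 10 windows were searched, on both strands. An E-box occurred in 7 of them, against 72.3% of all 32851 windows of the same length, and a TC-box in 2, against 25.6%. An E-box within 30 bases of a TC-box occurred in 6.97% of all windows, and among the members in the Nhlh2 window alone. CAGCTG, counted within CANNTG as well, occurred in the windows of Nhlh2 and Neurod4 and in 16.3% of all windows. CAGATG or CATCTG occurred in those of Nhlh1, Nhlh2 and Neurod2 and in 17.2% of all windows.

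**Figure D1:**
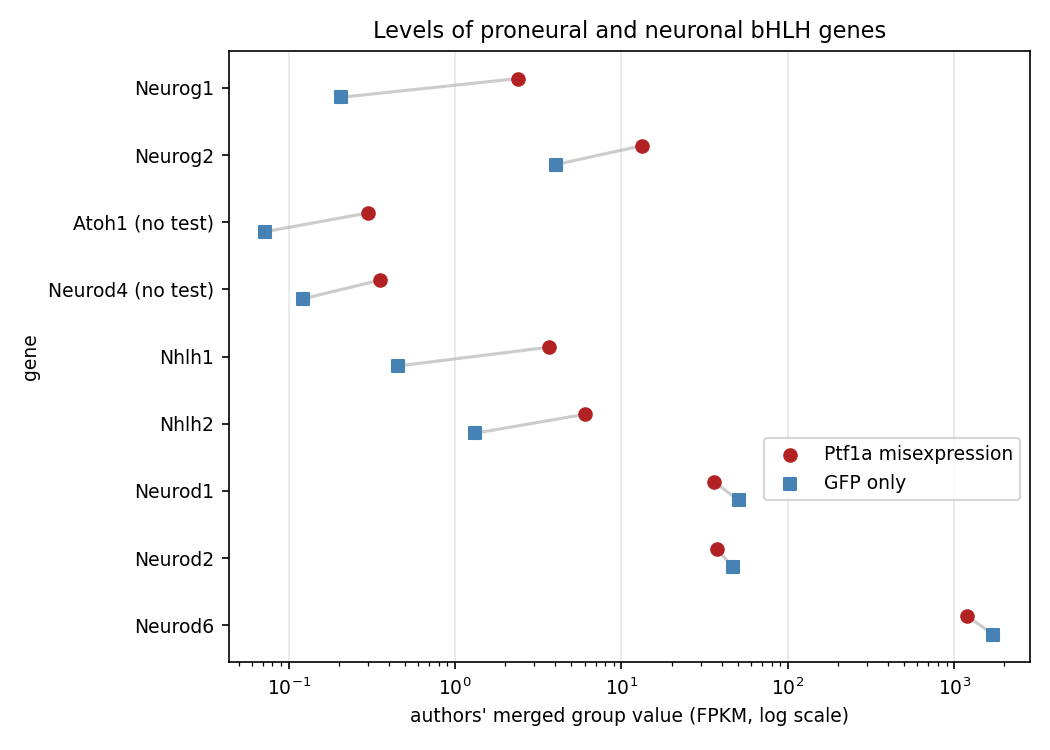
Levels of the 9 genes in Ptf1a misexpression (circles) and in the GFP-only control (squares), as the authors' merged group values in FPKM on a log axis, with no error bars because there is 1 value per group. Neurog1, Neurog2, Nhlh1 and Nhlh2 lie to the right in Ptf1a misexpression, Neurod1, Neurod2 and Neurod6 slightly to the left, and Neurod6 stands far above every other member in both groups.

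Neurog2 is the main proneural factor of the dorsal telencephalon (chromosome 3, 127336063 to 127338549, mm9). It stood at 13.3 FPKM in Ptf1a misexpression, against 4.04 FPKM in the GFP-only control, 3.30-fold higher. The log2 fold was 1.72 with q = 0.000329 in the authors' deposited table. That q is the smallest in the table, reached by 1803 genes, 5 of the members among them, so it does not rank them.

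Neurog1 is the close relative of Neurog2, co-expressed with it in cortical progenitors (chromosome 13, 56351860 to 56353524, mm9). It stood at 2.39 FPKM in Ptf1a misexpression and at 0.205 FPKM in the control, 11.6-fold higher. Its log2 fold of 3.54 had q = 0.000612 in the authors' deposited table. Neurog1 changed by the larger factor but stayed the scarcer of the pair: Neurog2 was 5.58 times as abundant as Neurog1 in Ptf1a misexpression and 19.6 times as abundant in the control. The control value of Neurog1 is low, and the ratio of its log2 fold to the authors' test statistic was 1.01, against 0.33 for Neurog2. This ratio is an error on the log2 scale only if the statistic is the fold over its error.

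Atoh1, which specifies cerebellar granule neurons and other rhombic lip cells, and Neurod4, a neurogenic factor that acts together with other proneural genes, remained near the lower limit of the table. Atoh1 was listed at 0.301 FPKM in Ptf1a misexpression and 0.0723 FPKM in the control. Neurod4 was listed at 0.356 FPKM in Ptf1a misexpression and 0.122 FPKM in the control. Neither row had a test, so neither can be said to have changed. Both values were higher with Ptf1a, but every value of both genes was below 0.4 FPKM.

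Nhlh1 and Nhlh2 (also called Hen1 and Hen2, or NSCL1 and NSCL2) are bHLH factors switched on in newly born neurons. Nhlh1 (chromosome 1, 173982423 to 173987727, mm9) stood at 3.67 FPKM in Ptf1a misexpression, against 0.453 FPKM in the control, 8.11-fold higher, with a log2 fold of 3.02 and q = 0.000329 in the authors' deposited table. Nhlh2 (chromosome 3, 101814068 to 101819415, mm9) stood at 6.00 FPKM in Ptf1a misexpression, against 1.33 FPKM in the control, 4.53-fold higher, with a log2 fold of 2.18 and q = 0.000329 in the authors' deposited table. The pair thus rose together, and Nhlh2 was the more abundant in both groups, by 1.63 times in Ptf1a misexpression and 2.93 times in the control. Summed, Nhlh1 and Nhlh2 reached 9.68 FPKM with Ptf1a and 1.78 FPKM without it.

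The NeuroD genes of postmitotic pyramidal neurons were the abundant members. Neurod6, also called Nex, marks young pyramidal neurons (chromosome 6, 55627813 to 55631257, mm9). It stood at 1190 FPKM in Ptf1a misexpression, against 1717 FPKM in the control, 30.7% lower, with a log2 fold of -0.53 and q = 0.000329 in the authors' deposited table. By level it was the 97th of all 23234 rows in Ptf1a misexpression and the 92nd in the control, and it made up 92.3% of the summed FPKM of the 9 genes with Ptf1a and 94.3% without it.

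Neurod1, which acts in the passage from basal progenitor to neuron (chromosome 2, 79292798 to 79296793, mm9), stood at 35.9 FPKM in Ptf1a misexpression and 50.6 FPKM in the control. It was 29.2% lower, with a log2 fold of -0.50 and q = 0.000329 in the authors' deposited table. Neurod2, a factor of differentiating cortical neurons and their synapses (chromosome 11, 98186731 to 98190959, mm9), stood at 37.3 FPKM in Ptf1a misexpression and 46.8 FPKM in the control. It was 20.1% lower, with a log2 fold of -0.32 and q = 0.00986 in the authors' deposited table. Neurod6 was 33.2 times as abundant as Neurod1 in Ptf1a misexpression and 33.9 times in the control. It was 31.9 times as abundant as Neurod2 in Ptf1a misexpression and 36.7 times in the control.

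FPKM is scaled to length, and on that basis levels were set side by side between genes. The extraction protocol names 2.1 to 7.8 ng of RNA, and uneven capture of different genes was not checked. Neurod6 led in both groups, and Neurod1 and Neurod2 followed at nearly equal levels, with Neurod1 at 0.96 times Neurod2 in Ptf1a misexpression and 1.08 times in the control. With no spread between samples, this pair cannot be ranked. Neurog2, Nhlh2, Nhlh1 and Neurog1 came next, in that order in both groups, and Neurod4 and Atoh1 were last.

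Ratios between members do not depend on how a whole group was scaled. Neurog2 stood at 0.371 of the level of Neurod1 in Ptf1a misexpression, against 0.0797 in the control, a ratio 4.65 times as large. Neurog1 and Neurog2 together came to 0.0124 of the summed Neurod1, Neurod2 and Neurod6 with Ptf1a and to 0.00234 without it. For Nhlh1 and Nhlh2 over the same sum the ratio was 7.81 times as large with Ptf1a as without it. The Neurog and Nhlh genes gained on the NeuroD genes in these ratios, yet the NeuroD genes stayed by far the more abundant.

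**Figure D2:**
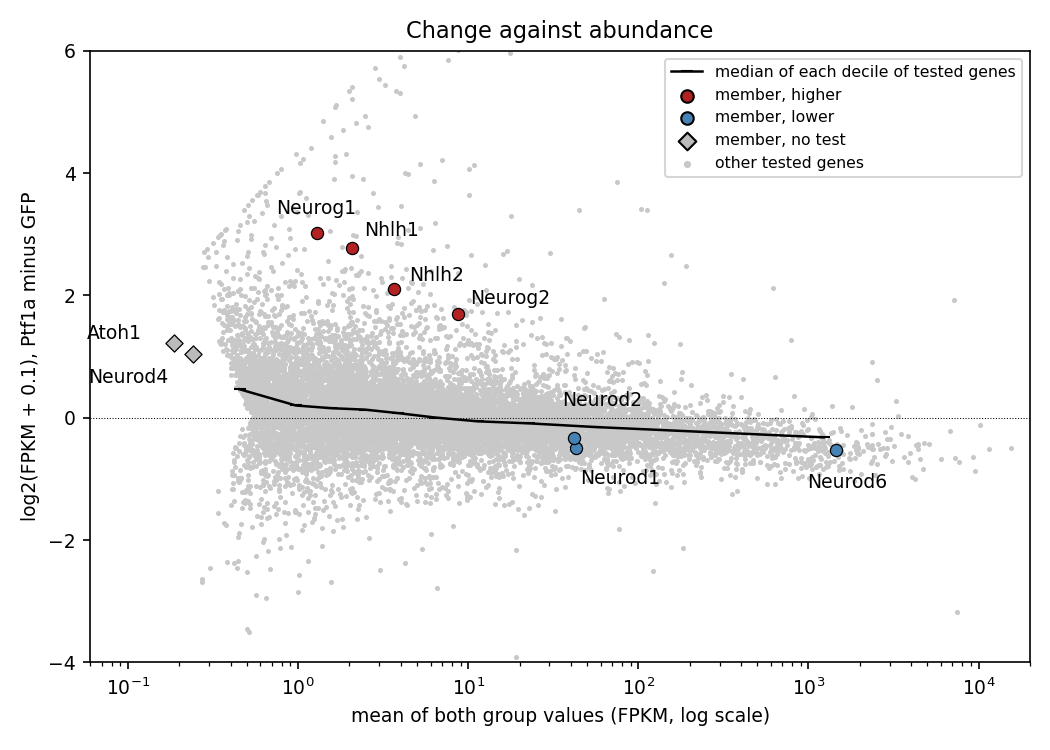
Difference in log2(FPKM + 0.1), Ptf1a minus GFP, against the mean of both group values in FPKM (log axis) for all tested genes (grey), the 7 tested members (red higher, blue lower) and the 2 members without a test (diamonds). The black line is the median of each decile of tested genes by mean expression, and 33 tested genes lie outside the range of -4 to 6; the 4 risen members stand far above the line and the 3 NeuroD genes lie 0.17 to 0.34 below it.

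Abundant genes tended to be lower in the Ptf1a samples across the whole table, and the NeuroD genes are abundant. Differences were taken here as log2(FPKM + 0.1) in Ptf1a minus GFP, and tested genes were divided into 10 deciles by mean FPKM. Neurod6 lay in the top decile, where 58.2% of genes were lower and the median difference was -0.32, and its own difference was -0.53. Neurod1 (-0.50) and Neurod2 (-0.32) lay in the decile below, where 32.7% of genes were lower and the median was -0.15. In their deciles, 23.7% of genes had a more negative difference than Neurod6, 13.5% than Neurod1 and 28.0% than Neurod2, so none of the 3 was at the extreme.

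The risen members stood apart from genes of like mean FPKM, a mean that includes their own Ptf1a value. Neurog1, at a difference of 3.03, exceeded 99.1% of its decile, where 24.9% of genes were higher. Its control value alone, 0.205 FPKM, was below the lowest mean of any tested gene, 0.272 FPKM, so its decile was set by its Ptf1a value. Nhlh1, at 2.77, exceeded 98.7% of its decile, where 24% were higher. Nhlh2, at 2.10, exceeded 98.1% of its decile, where 20.8% were higher, and Neurog2, at 1.70, exceeded 98.4% of its decile, where 15.7% were higher. The median difference over the 7 tested members was 1.70, and over all tested genes it was -0.01. That 1.70 is the value of Neurog2, with rises on 1 side and the NeuroD falls on the other, so it describes no shared shift. Summed FPKM of the 9 members was 1289 with Ptf1a and 1821 in the control. Without Neurod6 the sums were 99.2 FPKM with Ptf1a and 104 FPKM in the control.

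The NeuroD falls depended more on the scaling of the table than the rises did. The FPKM values of all rows summed to 752115 in Ptf1a misexpression and 916612 in the control, and bringing both to the same sum adds 0.29 to the log2 difference of a well-expressed gene. Relative to that shift the difference of Neurod2 was -0.04, that of Neurod1 -0.21 and that of Neurod6 -0.24, all still below 0, while that of Neurog2 was 1.98 and that of Neurog1 3.30. The authors' statistic was also read as a normal deviate, two-sided and with Benjamini-Hochberg adjustment over the 11831 genes that have one, which called 3.31% of genes higher and 2.81% lower. By this reading the rises of Neurog1, Neurog2, Nhlh1 and Nhlh2 were called at an adjusted value under 0.05, and the falls of Neurod1, Neurod2 and Neurod6 were not. This reading differs from the authors' own test, which gave smaller values. Neurod1, with a statistic of -2.10, had q = 0.000329 in the authors' deposited table and an adjusted value of 0.248 by the normal reading.

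**Figure D3:**
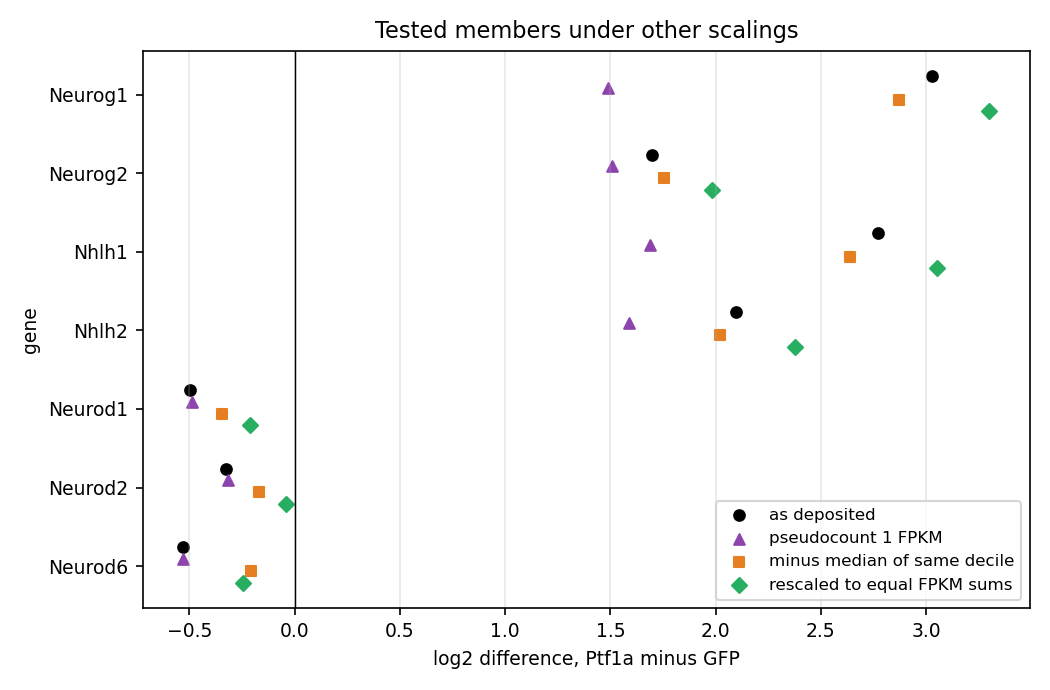
Difference in log2 between Ptf1a and GFP for the 7 tested members as deposited (circles, pseudocount 0.1 FPKM), with a pseudocount of 1 FPKM (triangles), minus the median of the same decile of mean expression (squares) and after rescaling both groups to the same FPKM sum (diamonds). The 4 risen members stay at 1.49 or more in every version and the 3 NeuroD genes stay below 0, with Neurod2 at -0.04 after rescaling.

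The partners and antagonists of these factors changed as well. For the counts of called genes in these and the following lists, the shares over all tested genes were 18.7% higher and 19.1% lower. Of the E-proteins, the obligate partners, Tcf4 and Tcf12 rose and Tcf3 was not called, giving a median difference of 0.62. Tcf4 stood at 90.8 FPKM in Ptf1a misexpression and 59.2 FPKM in the control, and Tcf12 at 7.54 FPKM in Ptf1a misexpression and 4.51 FPKM in the control. Tcf3 stood at 6.01 FPKM in Ptf1a misexpression and 5.30 FPKM in the control. All 4 Id genes were called, 3 higher and 1 lower. Id2, the most abundant, stood at 1015 FPKM in Ptf1a misexpression and 1513 FPKM in the control, and so the summed level of the 4 Id genes was 1552 FPKM with Ptf1a and 1595 FPKM without it, despite 10.6-fold and 5.59-fold rises of Id1 and Id3. Id4 stood at 8.84 FPKM with Ptf1a and 4.63 FPKM without it. Id2 lay in the top decile, where 58.2% of genes were lower and the median difference was -0.32, and its own difference was -0.58.

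Among Hes, Hey and Bhlhe40-type repressors, 5 of 6 tested genes rose and 1 fell, with a median difference of 1.14. Hes1 stood at 14.5 FPKM in Ptf1a misexpression and 5.09 FPKM in the control, and Hey1 at 13.8 FPKM with Ptf1a and 4.67 FPKM without it. Hes5 stood at 43.1 FPKM with Ptf1a and 22.0 FPKM in the control, and Heyl at 0.552 FPKM with Ptf1a and 0.163 FPKM in the control. Heyl lay in the lowest decile, where 30.8% of genes were higher. Hes6, which opposes Hes1 and promotes neuronal differentiation, fell to 103 FPKM with Ptf1a, against 127 FPKM in the control. Its difference of -0.31 was close to the median of -0.32 in the top decile, where 58.2% of genes were lower. Hes6 is named here because its value was seen. The other 4 listed repressors had no test and stood at 0.344 FPKM or less in either group.

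Other neural bHLH factors gave no common direction. Atoh8 rose, at 3.98 FPKM with Ptf1a against 0.419 FPKM in the control. Neurog3, a factor of pancreatic endocrine progenitors, was called higher near the threshold (q = 0.0492 in the authors' deposited table), at 0.813 FPKM with Ptf1a against 0.311 FPKM in the control. Bhlhe22, a repressor of cortical projection neurons, fell to 7.75 FPKM with Ptf1a, against 20.9 FPKM in the control. The remaining 11 of the 14 listed factors had no test and stood at 0.392 FPKM or less, with Atoh7 and Ferd3l listed at 0 in both groups.

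**Figure D4:**
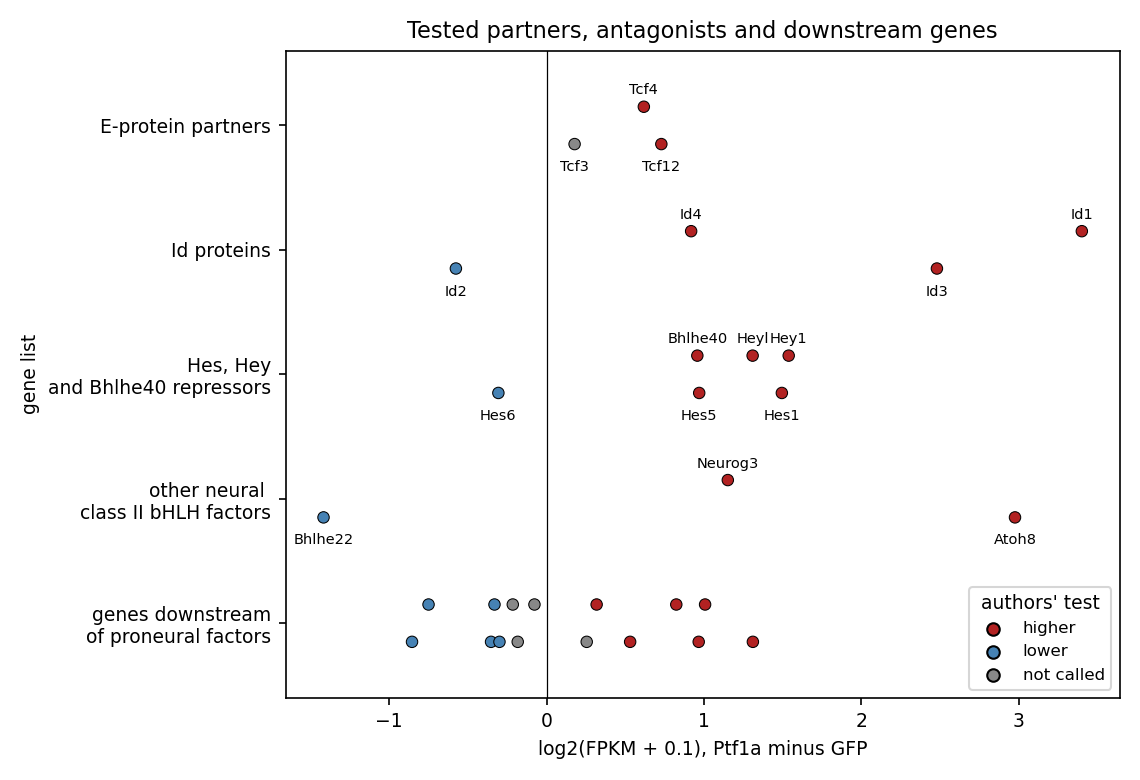
Difference in log2(FPKM + 0.1), Ptf1a minus GFP, for each tested gene of 5 lists of partners, antagonists, relatives and downstream genes, coloured by the authors' test (red higher, blue lower, grey not called). Names are given for lists of up to 6 tested genes; the Id and Hes lists hold genes on both sides of 0, and the downstream genes spread from -0.85 to 1.31.

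Genes known to act downstream of proneural factors split in both directions. Of 15 tested genes 6 rose, 5 fell and 4 were not called, with a median difference of -0.08. Those that rose most were Btg2, an antiproliferative gene of neurogenic divisions (36.3 FPKM with Ptf1a and 14.6 FPKM in the control), the corepressor gene Cbfa2t3 (2.04 FPKM with Ptf1a and 0.965 FPKM in the control) and Eomes, the T-box factor of basal progenitors (7.95 FPKM with Ptf1a and 4.02 FPKM in the control). Tbr1, the T-box factor of early postmitotic pyramidal neurons, fell to 8.29 FPKM with Ptf1a, against 15.1 FPKM in the control. Rnd2, a small GTPase through which Neurog2 controls migration, rose to 75.1 FPKM with Ptf1a, against 60.2 FPKM in the control, a log2 difference of 0.32 where that of Neurog2 was 1.70. Rnd2 was picked out with its value known. The Notch ligand gene Dll1, a classic proneural target, stood at 1.38 FPKM with Ptf1a and 1.62 FPKM in the control and was not called, and neither were Mfng, Gadd45g and Elavl4. Along the cortical sequence Pax6, Neurog2, Eomes, Neurod1, Tbr1, the first 3 were higher with Ptf1a and the last 2 lower. The genes of this sequence were picked with their values known. Pax6 stood at 21.5 FPKM with Ptf1a and 3.73 FPKM in the control.

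The nearest tested genes on either side of the members were more often called higher than lower. Not all were close: distances ran from 8.42 kb (Copa, from Nhlh1) to 2346 kb (A730020E08Rik, called higher, from Atoh1). Of 17 nearest tested genes on either side, 6 were higher, 35.3%, against 18.7% of all tested genes, and 1 was lower, 5.88%, against 19.1% of all tested genes. Their difference was above 0 for 14 and below 0 for 3, with a median of 0.27, against -0.01 over all tested genes. These values are a description with no test and were not matched for abundance. Of all tested genes, 30.8% in the lowest decile of mean FPKM were higher, against 3.79% in the highest. Cxcl14, a chemokine gene 36.5 kb from Neurog1, was at 8.08 FPKM with Ptf1a and 0.412 FPKM in the control. Tifa, 154 kb from Neurog2, was at 1.24 FPKM with Ptf1a and 0.313 FPKM in the control. The nearest tested neighbours of Nhlh1, Vangl2 and Copa, and those of Nhlh2 and Neurod1 were not called. The neighbours named were picked with their values known. No row of the table overlapped a member. In the GENCODE M21 annotation Neurog1 and Atoh1 have 1 exon, and the others have 2 exons apart from 1 Nhlh2 transcript with 3.

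Ptf1a itself was at 38.9 FPKM in the Ptf1a samples and 0.210 FPKM in the controls. Markers of other cell states moved with these results. For the counts of called markers, the shares over all tested genes were 18.7% higher and 19.1% lower. All 8 radial glia markers were higher, with a summed level of 3455 FPKM in Ptf1a misexpression and 1801 FPKM in the control. Without Fabp7 these sums were 360 FPKM with Ptf1a and 149 FPKM in the control. Basal progenitor markers were higher in 4 of 6 genes (162 FPKM summed with Ptf1a and 110 FPKM in the control). Of the 9 pyramidal neuron markers 5 were lower and 0 higher (118 FPKM summed with Ptf1a and 150 FPKM in the control), and each was detected in both groups. In the deciles of the 5 lower markers, 15.2% to 32.7% of genes were lower. Cajal-Retzius markers were higher in 4 of 4 tested genes (157 FPKM summed with Ptf1a and 16.04 FPKM in the control, mostly Calb2). Most of the rest was Cdkn1a, at 14.2 FPKM with Ptf1a and 5.79 FPKM in the control. Reln was weak, at 0.678 FPKM with Ptf1a and 0.244 FPKM in the control. Ebf3 was at 0.536 FPKM with Ptf1a and 0.0145 FPKM in the control. Reln and Ebf3 lay in the lowest decile, where 30.8% of genes were higher. Trp73, Lhx1 and Lhx5 had no test, and Ndnf had no row. Interneuron markers were higher in 6 of 8 tested genes (193 FPKM summed with Ptf1a and 150 FPKM in the control). Oligodendrocyte precursor markers had no tested gene. Summed levels were 12.8 FPKM with Ptf1a and 17.9 FPKM in the control for microglia, 6.44 FPKM with Ptf1a and 3.95 FPKM in the control for endothelium, and 2.53 FPKM with Ptf1a and 4.07 FPKM in the control for meninges. Red blood cell markers were lower in 3 of 5 genes (62.1 FPKM summed with Ptf1a and 149 FPKM in the control). Dlx6 was listed at 0 in the control, and no other marker was listed at 0. The part of these cell states in the changes of the bHLH genes was not tested.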

How the data were processed

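Only the authors' comparison table was used. Per the submitters' processing notes the tools were TopHat2 2.0.8, Cuffdiff, Cufflinks 2.1.1 and CASAVA 1.8.2, and the build mm9. The annotation and parameters are not given in the sources used here. Per the file headers, each group has a single FPKM value per gene, which the authors computed over its samples. The authors also deposited a log2 fold (Ptf1a over GFP), a test statistic, used here as a signed score, and a p-value and q-value. PIG in the headers was taken to mean the Ptf1a construct, since the other name there is GFP. Depth per sample and replicate error are unknown.

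Calls used the authors' q under 0.05 in 11876 tested rows. Log2 differences were computed with a pseudocount of 0.1 FPKM, which understates the change of weak genes. Deciles were formed by mean FPKM over tested genes. Coordinates from the table have 1 added to the start. Promoters came from RefSeq on GRCm38.p6, matched by symbol for all 9 genes. Python 3.11.15, pandas 2.3.3 and scipy 1.17.1 were used, and the calculations were tested on simulated data.

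The members, the 5 companion lists and the 10 marker lists were chosen with earlier results of these data known. Named from each companion list were up to 4 called genes with the largest difference and the most abundant uncalled genes; any other gene is said to have been picked with its value known. A gene of the companion lists is not reported here. Protein sequences were not used here. Alternatives covered the q threshold, the p-value used, an FPKM minimum, a fold minimum, pseudocounts, centring and rescaling.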

Additional observations from a re-analysis of the deposited data

How the results depend on the processing

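The 4 rises stayed called under all 5 alternative rules, and the 3 falls did under 3 of them. The falls went to 0 by the normal p of the test statistic, where 392 genes in all were higher and 332 lower, and to 0 with a log2 difference of at least 1 required, where 792 were higher and 222 lower, against 2217 and 2263 in the main count. Of 31 tested companion genes, 18 were called higher, or 7 by the normal p and 9 with the log2 minimum. Over all genes the shares higher were 18.7%, 3.31% and 6.67%, in that order. Companion genes called lower numbered 8, or 4 at a q under 0.01, 2 by the normal p and 1 with the log2 minimum. Over all genes the shares lower were 19.1%, 12.9%, 2.81% and 1.87%, in that order. With a pseudocount of 1 FPKM the log2 difference was 1.49 for Neurog1, 1.69 for Nhlh1, 1.59 for Nhlh2 and 0.28 for Atoh1. Rescaled to the same sum over all genes it was -0.21 for Neurod1, -0.039 for Neurod2 and -0.24 for Neurod6. Over tested genes only, an alternative chosen after seeing the data, it was -0.18 for Neurod1, -0.010 for Neurod2 and -0.21 for Neurod6. Minus the median of its decile it was -0.21 for Neurod6. No member changed direction under any of these 6 scalings and pseudocounts. A shift was set against the ratio of log2 fold to test statistic, or 0.78, the median of the lowest decile, for untested genes. No paired analysis was possible because the table holds 1 merged value per group, and leaving out single samples was not run for the same reason. The median ratio of log2 fold to test statistic was 0.78 in the lowest decile and 0.21 in the highest. It describes precision only if the statistic is the fold over its error, which was not established.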
